A study of Homo sapiens with 6 samples.

Results

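The cytoplasmic RNA sensors and the OAS genes are 10 genes whose products recognise double-stranded RNA, regulate that recognition or pass its signal on. They were taken by symbol from the platform annotation (IFIH1, DHX58, DDX60, TLR3, MAVS, OAS1, OAS2, OAS3, OASL and EIF2AK2), and each matched 1 row among the 21448 rows tested, of which 17709 carry 1 gene symbol (17687 different genes). All 10 genes were measured in MSTO cells, the human pleural mesothelioma line MSTO-211H. In the anti-miR-503 group 3 cultures were given an inhibitor of miR-503, a microRNA, for 48 h. The control group had 3 cultures. For these the array titles say untreated, the treatment notes a DMSO vehicle and the study's methods both a negative control and untreated cells. What they received is therefore not settled. The study's methods describe delivery of the inhibitor to cells with Lipofectamine RNAiMAX, a transfection reagent. If the controls were not transfected, miR-503 inhibition cannot be told apart from transfection or from the presence of a foreign oligonucleotide. Total RNA (100 ng of each culture) was hybridized to 1 Clariom S array, and the titles call the cultures biological replicates of this single line.

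Cells sense viral RNA through RIG-I-like helicases. MDA5, encoded by IFIH1, binds long double-stranded RNA in the cytoplasm, and MDA5 and RIG-I converge on MAVS, an adaptor on the mitochondrial membrane that leads to IRF3 and interferon. LGP2, encoded by DHX58, regulates both helicases and does not signal to MAVS itself. TLR3 sees double-stranded RNA in endosomes. The OAS enzymes make the signalling molecule 2-5A, and PKR, encoded by EIF2AK2, phosphorylates eIF2alpha and slows translation. Most of these genes are themselves induced by interferon, through ISGF3 bound at a promoter element called the ISRE.

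The mature miR-503 (RefSeq, GRCh38.p14, chrX:134546371-134546393, minus strand) is shown because it is the target of the inhibitor, with its seed, bases 2 to 8, in capitals. Its level is not among the array values used here, so inhibition could not be checked on these arrays.
hsa-miR-503-5p: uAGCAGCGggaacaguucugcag

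Promoters are shown for the gene that passed the 2-fold threshold (DDX60), for a sensor and the OAS genes with a similar element close to the start, and for the adaptor without one (MAVS). Each line gives the 100 bases before the start of the gene (RefSeq, GRCh38.p14), 5′ to 3′ along the gene, and capitals mark matches to the ISRE motif given below them, or, for OAS1, to a looser form of it.
DDX60, chr4:168318753-168318852 (minus strand): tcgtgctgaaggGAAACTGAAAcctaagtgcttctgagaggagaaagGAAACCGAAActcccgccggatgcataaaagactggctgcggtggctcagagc
IFIH1, chr2:162318685-162318784 (minus strand): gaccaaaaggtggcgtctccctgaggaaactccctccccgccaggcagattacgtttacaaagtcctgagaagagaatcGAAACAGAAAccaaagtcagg
OAS3, chr12:112938374-112938473 (plus strand): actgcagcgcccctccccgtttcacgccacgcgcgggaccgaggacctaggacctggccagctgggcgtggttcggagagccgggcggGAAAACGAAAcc
OAS1, chr12:112906862-112906961 (plus strand): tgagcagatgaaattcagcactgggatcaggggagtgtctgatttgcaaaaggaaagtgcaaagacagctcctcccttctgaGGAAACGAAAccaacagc
MAVS, chr20:3846734-3846833 (plus strand): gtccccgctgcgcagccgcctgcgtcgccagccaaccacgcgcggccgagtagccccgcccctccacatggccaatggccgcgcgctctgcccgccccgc

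The motif searched was GAAANNGAAA, on both strands, in windows of 250 bases before to 50 after each start, and 7 of the 10 genes had such a window. It was found in 5 of the 7 (IFIH1, DDX60, TLR3, OAS3 and EIF2AK2) and in 3.57% of all 35116 windows. DDX60 held 2 matches, 88 to 79 and 53 to 44 bases before its start. IFIH1 held 1 match 21 to 12 bases before its start and 2 that overlap each other on the opposite strand further out, and the 2 of OAS3 began 143 and 12 bases before its start. In TLR3 and EIF2AK2 the match spanned the start itself. OAS1 matched only the looser GNAANNGAAA, 18 to 9 bases before its start, which was written after its sequence had been seen, contains the first motif and is in 8.03% of windows. MAVS matched neither. A match to these letters is a description of the sequence. Among the 14250 tested genes with a window, the 443 with GAAANNGAAA had a median log2 fold change of 0.02, against 0.01 for all of them.

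The deposited values are log2 signals made by RMA (robust multi-array average), with array medians between 6.56 and 6.63. A row was called above background where its signal exceeded that of 95% of the 612 negative control rows on that array, a level between 7.44 and 8.09. On each array 40.3% to 43.6% of the rows did so. Across rows, anti-miR-503 replicate 1 was most like a control, replicate 3 (r = 0.991, above every other pair). It was also more like control replicates 1 (r = 0.984) and 2 (r = 0.987) than anti-miR-503 replicates 2 (r = 0.980) and 3 (r = 0.977). Results that rest on anti-miR-503 replicate 1 or control replicate 3 are therefore also given without them. The epithelial and mesothelial markers KRT8, KRT18, VIM, MSLN and CALB2 were above background on all 6 arrays, whereas PDPN, WT1 and KRT19 were on none. No measured marker of leukocytes (0 of 11) or of endothelium and fibroblasts (0 of 8) was above background on any array, and their summed linear signals overlapped between the groups (258.6 to 382.7 in anti-miR-503 and 269.6 to 316.5 in control arrays for leukocytes, 279.0 to 328.4 and 256.6 to 418.4 for the others).

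To ask whether RNA levels of these genes differ between the groups, each row was fitted in limma. The p-values were adjusted over all rows by Benjamini-Hochberg. RNA levels of sensor genes do not measure RNA sensing itself. At an adjusted p under 0.05, 0 of the 10 genes and 0 of all rows passed (0%), while 4 of the 10 and 1377 of all rows (6.42%) had an unadjusted p of 0.05 or less. The smallest adjusted p over all rows was 0.756. The 2-fold threshold used below asks for an unadjusted p of 0.05 or less and at least a 2-fold change. Of the 10 genes, 1 passed it upwards, where 0.872% of all rows did, and 0 passed it downwards, where 0.914% of all rows did. The median log2 fold change of the 10 genes was 0.44, against 0.01 over all rows, with 9 positive and 1 negative values. These include OAS2, not above background on any array, and DHX58, not above it on any control array. Over the 7 genes above background on all 6 arrays, a selection made after the values had been seen, the median was 0.17. In 2 of the 10 every anti-miR-503 array lay above every control array, and in 0 below, where 5.92% and 4.6% of all rows did. With 3 arrays against 3, the smallest two-sided p of an exact permutation test is 0.1. In these bulk samples, fewer cells expressing a gene and less of its RNA per cell cannot be told apart.

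**Figure D1:**
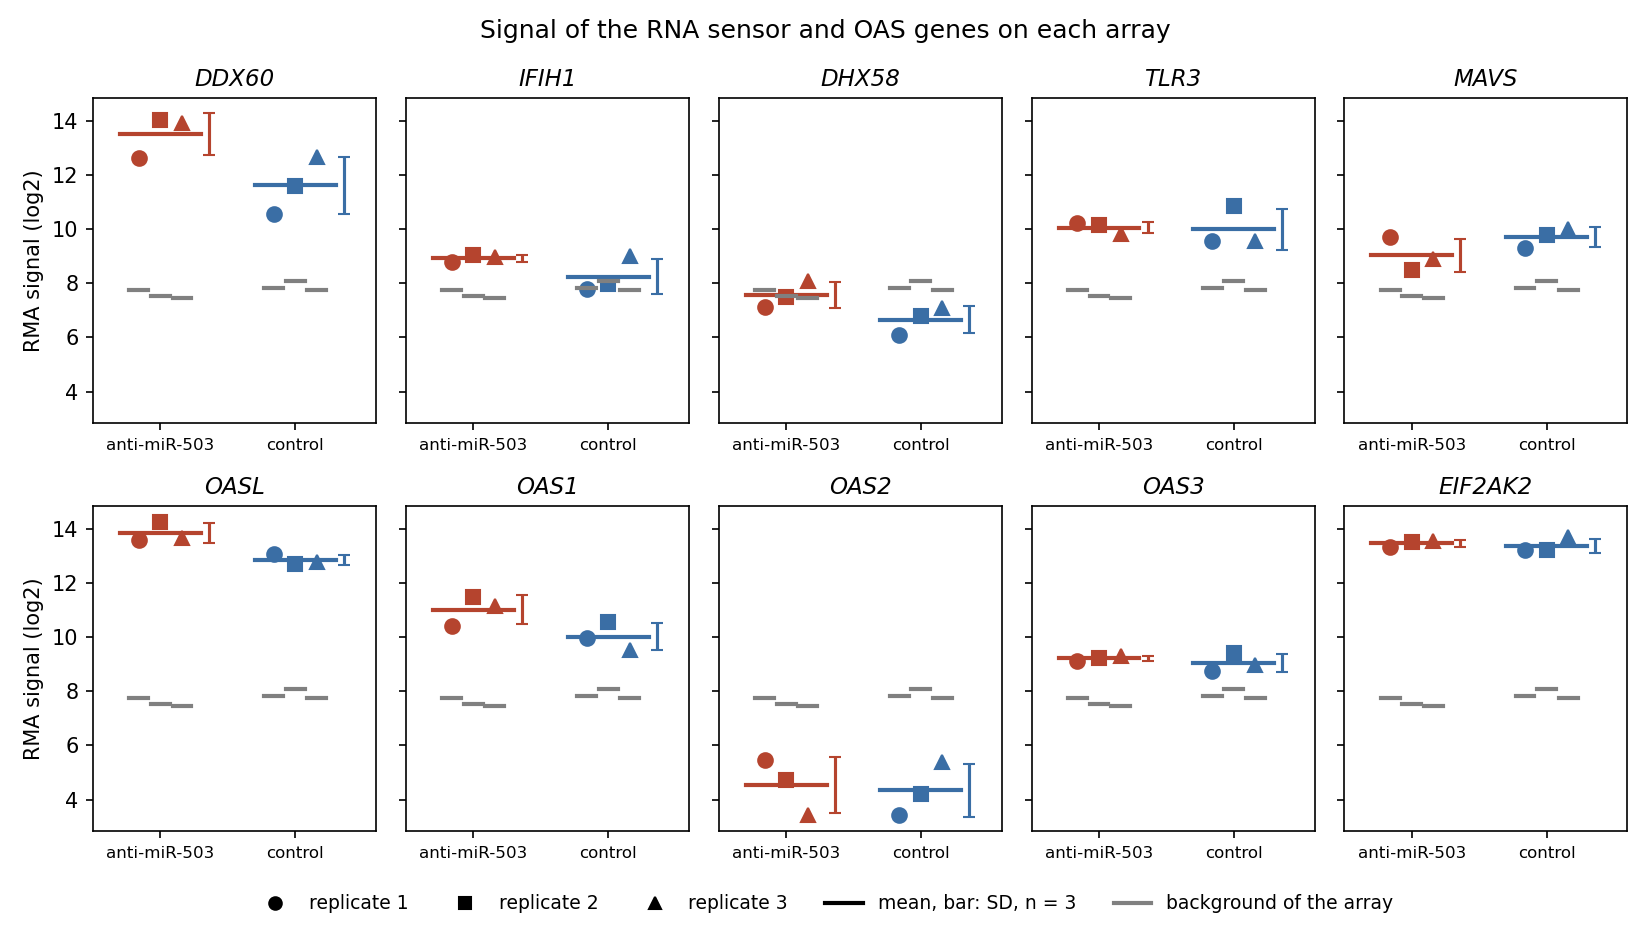
RMA signal (log2) of each of the 10 genes on each array, anti-miR-503 left and control right, with symbols for replicates, lines for means and bars for SD (n = 3). Grey marks show the background of each array. DDX60, OASL and OAS1 have higher means in the anti-miR-503 arrays, OAS2 lies under background on all 6 arrays, and DDX60 of control replicate 3 (12.68) is as high as that of anti-miR-503 replicate 1 (12.64).

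DDX60, a DExD/H-box helicase reported to promote signalling by RIG-I-like receptors, had the largest difference among the 10 genes. Its log2 signal was 12.64, 14.04 and 13.93 in the anti-miR-503 arrays, against 10.58, 11.62 and 12.68 in the control arrays. Control replicate 3 exceeded anti-miR-503 replicate 1, and this was the only overlap between the groups. The means were 13.54 ± 0.78 in anti-miR-503 and 11.62 ± 1.05 in control arrays (SD, n = 3 each), a log2 fold change of 1.91 (standard error 0.55, 95% interval 0.65 to 3.17, adjusted p = 0.756 from limma), or 3.77-fold. The exact permutation test gave p = 0.2 (two-sided). Fold changes throughout set the arrays labelled anti-miR-503 over those labelled control. The study's own sheet of changed genes, chosen on these arrays, holds DDX60 and OAS1 with the opposite sign, so the direction is in conflict and not only dependent on the same data. If the labels of the groups had been exchanged, every fold change here would keep its size and turn its sign. If the labels of single arrays had been exchanged, sizes could change as well. Whether either happened was not tested, since no value used here, miR-503 included, checks the labels. All directions and sizes therefore hold by array label only. DDX60 passed the 2-fold threshold without any 1 of the 6 arrays, where 0.378% to 2.42% of all rows passed upwards. Its log2 fold change then lay between 1.39 (without control replicate 1) and 2.44 (without control replicate 3). With anti-miR-503 replicate 1 and control replicate 3 both left out, an alternative chosen after the data had been seen, it was 2.89 (standard error 0.36, adjusted p = 0.00953 from limma), where 2.37% of all rows passed the adjusted threshold. With an unpaired t test, which has fewer degrees of freedom than limma, DDX60 did not pass.

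IFIH1, the MDA5 gene, had log2 signals of 8.79, 9.05 and 8.96 in anti-miR-503 arrays, against 7.78, 7.96 and 8.996 in control arrays. The anti-miR-503 arrays lay close together, and control replicate 3 lay among them while the other controls were not above background. This gave a log2 fold change of 0.69 (standard error 0.33, 95% interval -0.06 to 1.44, adjusted p = 0.756 from limma). Without control replicate 3 the fitted difference passed the 2-fold threshold, as 1.38% of all rows then did upwards, but both controls left were not above background, and no fold is given.

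DHX58, which encodes LGP2, had log2 signals of 7.11, 7.51 and 8.10 in anti-miR-503 arrays, against 6.09, 6.81 and 7.09 in control arrays. Every anti-miR-503 array was higher than every control, by a margin of under 0.1 between the nearest arrays, but only anti-miR-503 replicate 3 was above background. No fold is therefore given for it (adjusted p = 0.756 from limma, exact permutation p = 0.1). Its fitted difference passed the 2-fold threshold when anti-miR-503 replicate 1 (2.42% of all rows upwards) or control replicate 3 (1.38%) was left out. The controls were still not above background, so this is not read as a 2-fold change.

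MAVS, the adaptor, was the only one of the 10 with a lower mean in the anti-miR-503 arrays. Its log2 signals were 9.71, 8.50 and 8.90 in anti-miR-503 arrays, against 9.31, 9.79 and 10.03 in control arrays. Anti-miR-503 replicates 2 and 3 lay below all controls, whereas anti-miR-503 replicate 1 lay among them. For MAVS the log2 fold change was -0.68 (standard error 0.34, 95% interval -1.46 to 0.11, adjusted p = 0.762 from limma). Without anti-miR-503 replicate 1 it was -1.01 (standard error 0.30, adjusted p = 0.174 from limma), and MAVS then passed the 2-fold threshold downwards, as 3.81% of all rows did.

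TLR3, the endosomal sensor, showed no order between the groups. It had log2 signals of 10.22, 10.15 and 9.83 in anti-miR-503 arrays, against 9.57, 10.86 and 9.55 in control arrays. Control replicate 2 was the highest of all, and the other controls were the lowest. The log2 fold change was 0.07 (standard error 0.37, 95% interval -0.76 to 0.90), and it lay between -0.15 and 0.50 when 1 array was left out, so its sign rested on single arrays.

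OASL, an OAS-like protein that lacks 2-5A synthesis and is known to enhance RIG-I signalling, separated the groups. Its log2 signals were 13.59, 14.28 and 13.68 in anti-miR-503 arrays, against 13.07, 12.71 and 12.80 in control arrays. Every anti-miR-503 array exceeded every control, anti-miR-503 replicate 1 and control replicate 3 included. The means were 13.85 ± 0.38 in anti-miR-503 and 12.86 ± 0.19 in control arrays (SD, n = 3 each). The log2 fold change of 0.99 (standard error 0.26, 95% interval 0.40 to 1.57, adjusted p = 0.756 from limma, exact permutation p = 0.1) was just short of 2-fold at 1.98-fold. It lay between 0.77 (without anti-miR-503 replicate 2) and 1.12 (without anti-miR-503 replicate 1). OASL passed the threshold without anti-miR-503 replicate 1, anti-miR-503 replicate 3 or control replicate 1. Without these in turn, 2.42%, 0.378% and 0.573% of all rows passed upwards.

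OAS1, a 2-5A synthetase, had log2 signals of 10.42, 11.48 and 11.16 in anti-miR-503 arrays, against 9.98, 10.56 and 9.55 in control arrays. Anti-miR-503 replicates 2 and 3 were above all controls, and anti-miR-503 replicate 1 was below control replicate 2. The difference for OAS1 was 0.99 on the log2 scale (standard error 0.35, 95% interval 0.19 to 1.80, adjusted p = 0.756 from limma), or 1.99-fold, just under the threshold. It passed without anti-miR-503 replicate 1 (1.29, with 2.42% of all rows upwards) or control replicate 2 (1.26, with 0.928%). When control replicate 3 was left out it was 0.75.

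Neither OAS3 nor OAS2, the other synthetases, passed a threshold. OAS3 had log2 signals of 9.11, 9.24 and 9.31 in anti-miR-503 arrays, against 8.77, 9.42 and 8.97 in control arrays. Control replicate 2 was the highest array, and the log2 fold change was 0.17 (standard error 0.24, 95% interval -0.38 to 0.72). OAS2 was not above background on any array, with log2 signals of 5.46, 4.73 and 3.42 in anti-miR-503 arrays, against 3.44, 4.22 and 5.38 in control arrays, and no fold is given for it.

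EIF2AK2, which encodes PKR, varied little. Its log2 signals were 13.34, 13.52 and 13.57 in anti-miR-503 arrays, against 13.25, 13.23 and 13.70 in control arrays. The highest array was control replicate 3 and the groups overlapped. Its log2 fold change was 0.09 with a standard error of 0.23, and the 95% interval of -0.43 to 0.61 does not reach a 2-fold change in either direction, as do those of OAS3 and TLR3.

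**Figure D2:**
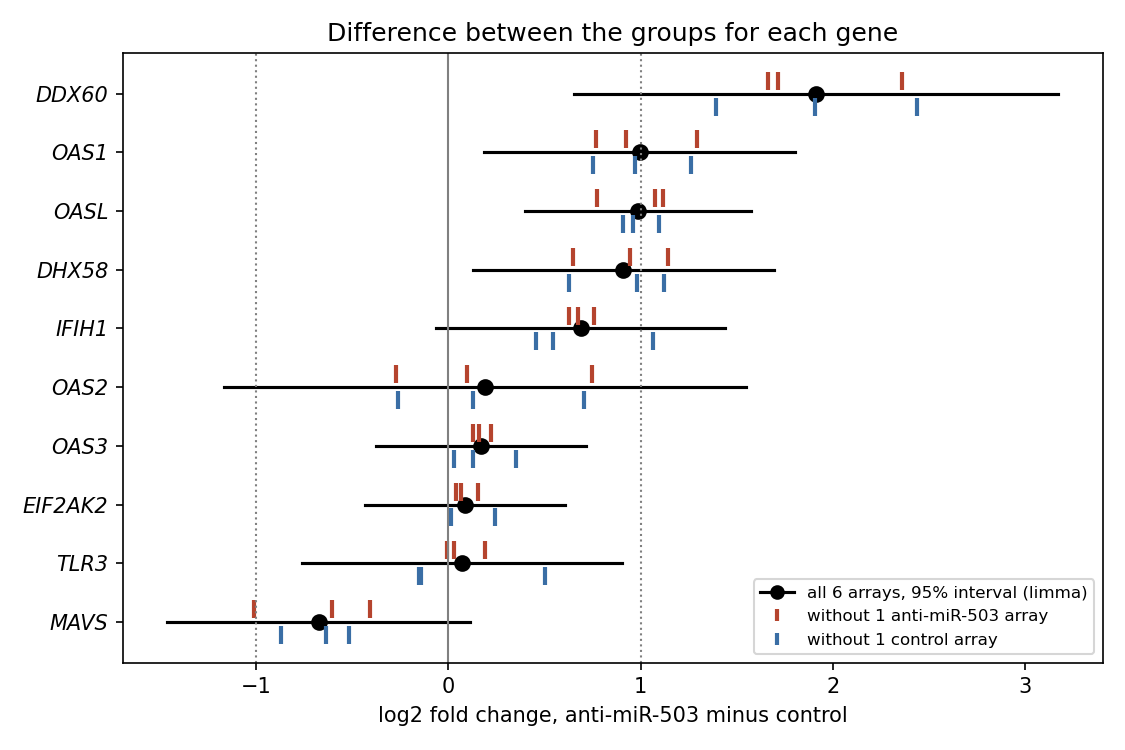
Log2 fold change (anti-miR-503 minus control) of each of the 10 genes, with limma's 95% interval (black). Ticks give the value without 1 anti-miR-503 array (red, above) or without 1 control array (blue, below), and dotted lines mark 2-fold. DDX60 stays past 2-fold in each case, OAS1, OASL and (downwards) MAVS cross it in some, and TLR3 and OAS2 lie on both sides of 0. DHX58 and IFIH1 also cross it in some, but the controls left were then not above background, so no fold is read from these ticks. OAS2 was not above background on any array.

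The 10 genes did not move as a block across arrays. As the median deviation of the 10 genes from their mean over the 6 arrays, anti-miR-503 replicates 1 to 3 had 0.13, 0.34 and 0.25 on the log2 scale, and control replicates 1 to 3 had -0.50, -0.21 and 0.03. Control replicate 3 was thus nearer to the anti-miR-503 arrays than the other controls were. The number of the 10 genes above their control mean was 8, 9 and 7 in anti-miR-503 arrays and 1, 5 and 6 in control arrays. Without control replicate 1 the median log2 fold change of the 10 genes was 0.24, and without control replicate 3 it was 0.73. Non-overlap also depended on single arrays, with 5 of the 10 genes wholly above the controls without control replicate 3 (13.9% of all rows) or control replicate 2 (10.8%). When anti-miR-503 replicate 1 was left out, 4 of the 10 were wholly above (16.0%).

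Over the 6 arrays, which the genes share, DHX58 and DDX60 had the most similar patterns among the 45 pairs (Pearson r = 0.945), followed by IFIH1 and DDX60 (r = 0.913). OAS1 and OASL had r = 0.799. MAVS ran opposite to OASL (r = -0.849) and OAS1 (r = -0.840), and TLR3 had r near 0 with DDX60 (r = -0.0055). Of 8116 genes above background on at least 3 arrays, the one most like DDX60 was PPM1K (r = 0.997), with 289 genes over r = 0.9, so high values of r are frequent over 6 points. The gene most like IFIH1 was DRAM2 (r = 0.995), most like DHX58 was GOLGA5 (r = 0.994), most like OAS1 was CDV3 (r = 0.994) and most like OASL was ERMP1 (r = 0.980). For MAVS it was VPS13B (r = 0.995), for TLR3 PRKAG2 (r = 0.984), for OAS3 ITGAV (r = 0.993), for EIF2AK2 BCL7A (r = 0.991) and for OAS2, itself under background, SYF2 (r = 0.994).

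**Figure D3:**
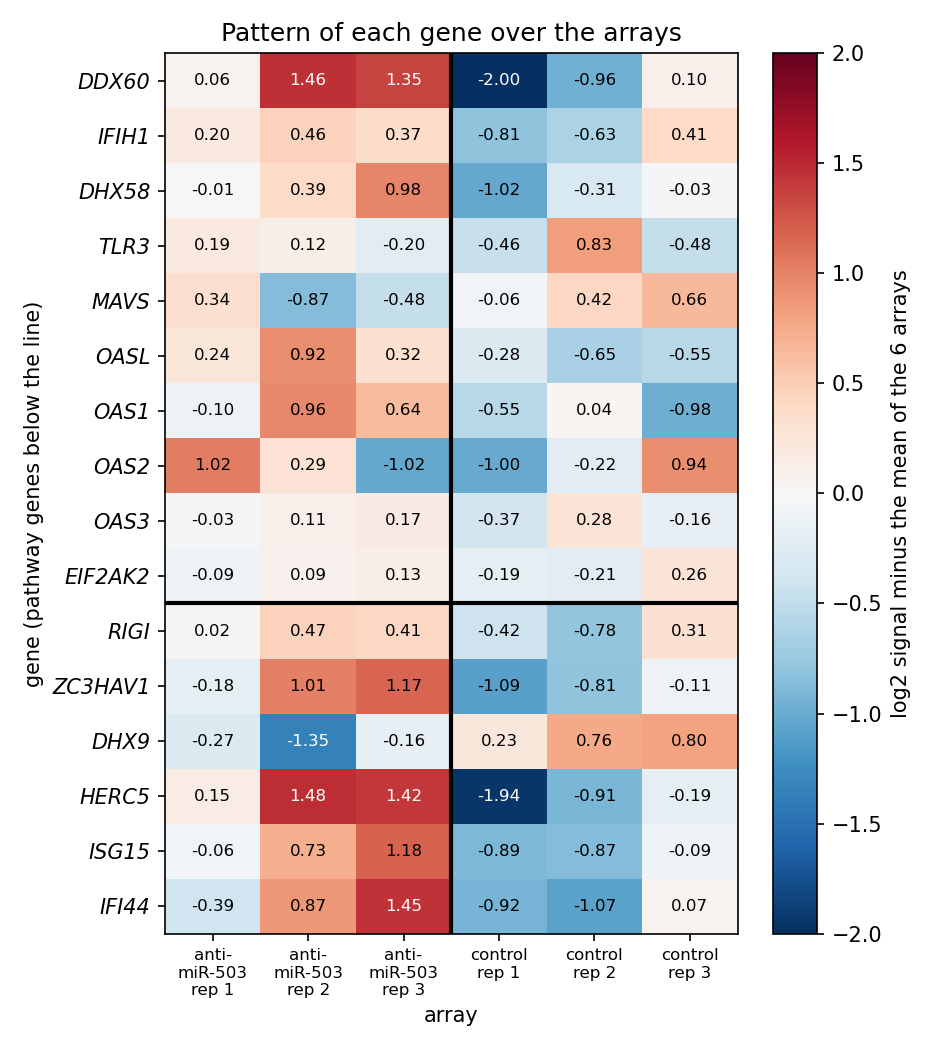
Log2 signal minus the mean of the 6 arrays for the 10 genes (above the line) and for 6 pathway genes (below it), with anti-miR-503 arrays left and control arrays right. Anti-miR-503 replicates 2 and 3 are high and control replicates 1 and 2 low in DDX60, ZC3HAV1, HERC5 and ISG15, while anti-miR-503 replicate 1 and control replicate 3 lie near 0.

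Among genes that signal from the sensors, 0 of 22 measured passed the 2-fold threshold in either direction, and their median log2 fold change was 0.03. RIGI, the sensor of short 5′-triphosphate RNA, had log2 signals of 10.48, 10.94 and 10.88 in anti-miR-503 arrays, against 10.05, 9.69 and 10.77 in control arrays (log2 fold change 0.60, standard error 0.31, adjusted p = 0.762 from limma). As with IFIH1, control replicate 3 lay among the anti-miR-503 arrays. TANK, a scaffold of the TBK1 kinase, had the smallest p of this list (log2 fold change 0.66, standard error 0.31), and TBK1 itself had -0.04. The transcription factors IRF3 and IRF7 were not above background on any array, which does not show that their RNA is absent. Of 20 measured interferon genes none was above background on any array, IFNB1 and the keratinocyte interferon IFNK included.

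Of 25 other nucleic acid sensors, 1 was higher and 1 lower at the 2-fold threshold, where 0.872% and 0.914% of all rows were. The list median was -0.03. ZC3HAV1, the zinc finger antiviral protein that binds CpG-rich viral RNA, had log2 signals of 12.28, 13.47 and 13.63 in anti-miR-503 arrays, against 11.36, 11.65 and 12.35 in control arrays. Control replicate 3 again exceeded anti-miR-503 replicate 1, as for DDX60. Its log2 fold change was 1.34 (standard error 0.40, adjusted p = 0.756 from limma). ZC3HAV1 was past the threshold without any 1 array, where 0.378% to 2.42% of all rows were upwards. DHX9, a nuclear RNA helicase, went the other way, with 10.50, 9.42 and 10.60 in anti-miR-503 arrays, against 10.99, 11.53 and 11.57 in control arrays. All its anti-miR-503 values were below all controls (log2 fold change -1.19, standard error 0.35, adjusted p = 0.756 from limma), but without anti-miR-503 replicate 2 it was -0.81 and no longer 2-fold.

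Of 21 measured partners of the 2-5A and PKR pathways, 0 passed in either direction and the median was 0.06. PRKRA, the PKR activator PACT, had a log2 difference of 0.38 (standard error 0.25), ADAR, which edits double-stranded RNA, -0.24 (standard error 0.27) and EIF2S1, the eIF2alpha that PKR phosphorylates, 0.01 (standard error 0.21). DDIT3, a transcription factor of the stress response downstream of eIF2alpha, had the smallest p of this list. Its log2 signals were 10.11, 11.42 and 11.09 in anti-miR-503 arrays, against 9.69, 10.14 and 10.17 in control arrays (log2 fold change 0.87, standard error 0.35, adjusted p = 0.756 from limma).

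Of 17 measured interferon receptor and JAK-STAT genes, 0 passed and the median was 0.03. IFNGR2, a chain of the interferon-gamma receptor, had 11.89, 12.94 and 13.05 in anti-miR-503 arrays, against 11.44, 11.76 and 11.69 in control arrays, with no overlap (log2 fold change 0.99, standard error 0.33, adjusted p = 0.756 from limma). IFNAR1, a chain of the receptor for type I interferons, had 0.00 and IRF9, the DNA-binding part of ISGF3, 0.02.

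Of 40 other interferon-stimulated effectors, 3 passed upwards (HERC5, ISG15 and IFI44) and 0 downwards, where 0.872% and 0.914% of all rows did. The list median was 0.11, with 28 of the 40 above background on at least 1 array. Upwards, 8 passed without control replicate 3 (1.38% of all rows) and 5 without anti-miR-503 replicate 1 (2.42%). By the unpaired t test 1 passed upwards, as did 38 of all rows. The count was 2 without anti-miR-503 replicate 2 (0.443%), anti-miR-503 replicate 3 (0.378%) or control replicate 1 (0.573%). The median was 0.28 without control replicate 3, 0.03 without control replicate 1, 0.02 without anti-miR-503 replicate 1 and 0.19 without anti-miR-503 replicate 3. All 3 genes are on the study's sheet of changed genes with the opposite sign, so the conflict of direction given for DDX60 applies to them too. HERC5, an ISG15 ligase, had log2 signals of 11.90, 13.23 and 13.17 in anti-miR-503 arrays, against 9.81, 10.85 and 11.56 in control arrays (log2 fold change 2.03, standard error 0.50, adjusted p = 0.756 from limma). ISG15, a ubiquitin-like protein, had 8.94, 9.74 and 10.19 in anti-miR-503 arrays, against 8.11, 8.14 and 8.91 in control arrays (log2 fold change 1.24, standard error 0.36), and 0.95, under 2-fold, without anti-miR-503 replicate 3. For both every anti-miR-503 array was above every control, by under 0.1 for ISG15. IFI44 had 9.71, 10.98 and 11.55 in anti-miR-503 arrays, against 9.18, 9.03 and 10.17 in control arrays, overlapping through control replicate 3 (log2 fold change 1.28, standard error 0.49). It did not pass without anti-miR-503 replicate 2, anti-miR-503 replicate 3, control replicate 1 or control replicate 2. The per-array medians of the 40 effectors, as deviations from the mean of the 6 arrays, were 0.16, 0.07 and -0.07 in anti-miR-503 arrays and -0.30, -0.29 and 0.17 in control arrays, with control replicate 3 the highest of all 6.

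**Figure D4:**
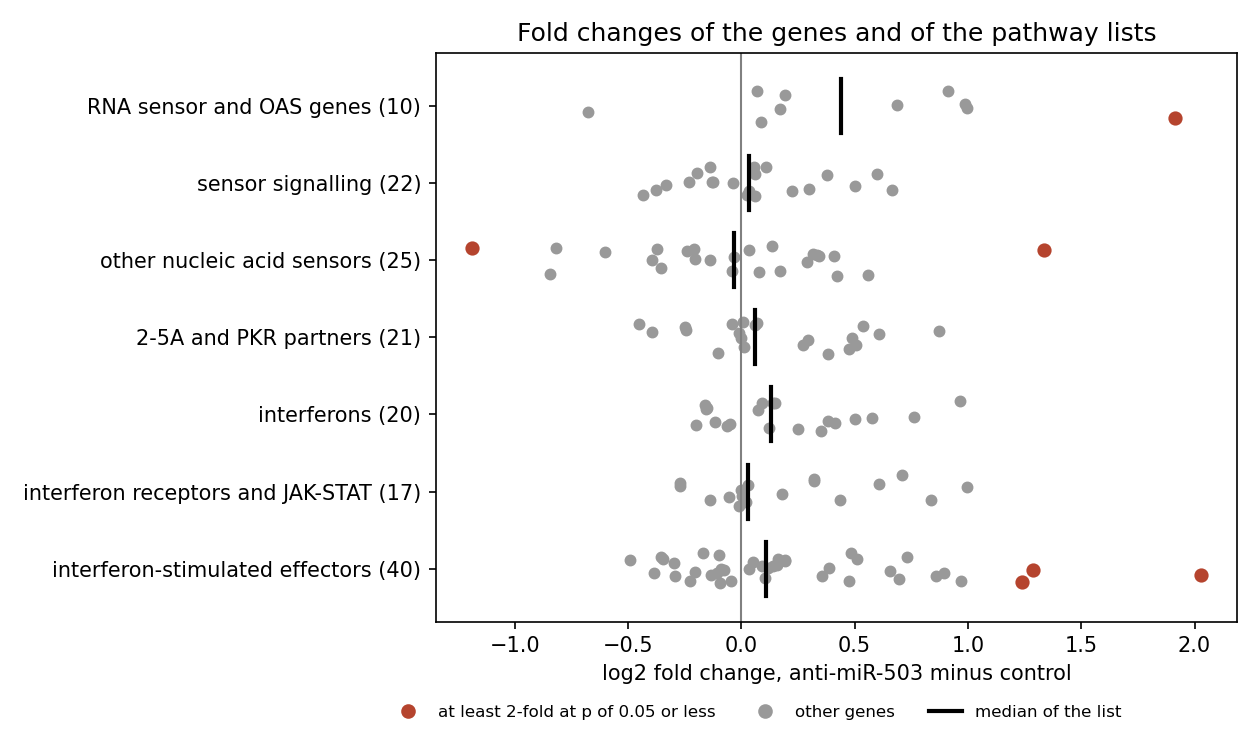
Log2 fold change (anti-miR-503 minus control) of each measured gene of the 10 RNA sensor and OAS genes and of 6 pathway lists, whose sizes are in parentheses. Red points passed the 2-fold threshold and black bars are medians. The median of the 10 genes is 0.44 and those of the lists lie between -0.03 and 0.13. Genes not above background are included. The median of 0.13 is that of the interferons, of which 0 of 20 were above background on any array. Of the 40 effectors, 28 were above background on at least 1 array.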

How the data were processed

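RNA of 6 MSTO-211H cultures (3 anti-miR-503, 3 control) was measured on Clariom S arrays. The authors made 1 log2 signal per transcript and array with the Transcriptome Analysis Console by RMA, which corrects background, equalizes array distributions and summarizes probes, and the deposited log2 values were taken as they are. Equalized distributions would hide a shift common to most genes. The build behind the array annotation was not given in the sources used here. Of 24351 rows, 2903 array controls were left out. Symbols came from the platform annotation. For a symbol with several rows, that with the highest mean was used.

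Groups were compared with lmFit and eBayes (limma 3.58.1, R 4.3.3), with Benjamini-Hochberg adjustment over 21448 rows. The procedure was tested on simulated data. Named genes are the 10 genes, up to 3 genes per pathway list past the 2-fold threshold (otherwise the 1 with the smallest p), a fixed set of pathway partners, and for each of the 10 genes the most similar gene. The genes and lists were chosen with earlier results of these data known. Promoter windows and the microRNA came from RefSeq tables of GRCh38.p14, in which DHX58, OAS2 and OASL were not matched to a window. Results were recomputed with an unpaired t test (the test the methods give for 2 groups), robust estimation with a variance trend, a filter on low rows, 1 row per gene, a second quantile normalization, median centring, array weights, a replicate block, other thresholds and leaving out arrays. The number of arrays limits precision. Some genes of the pathway lists are not reported here.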

Additional observations from a re-analysis of the deposited data

How the results depend on the processing

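The number of the 10 genes at least 2-fold higher (1 with all 6 arrays) was 0 by the unpaired t test, 2 after a second quantile normalization (DDX60 and OAS1), 3 after centring on the array median or with array weights (DDX60, OAS1 and OASL in both) and 4 at a fold threshold of 1.5. It ranged from 1 to 4 when 1 array was left out and was 5 without both anti-miR-503 replicate 1 and control replicate 3, where 3.09% of all rows were higher and 1 of the 10 genes, DDX60, passed the adjusted threshold. The count at a fold threshold of 1.5 includes DHX58, which was not above background on any control array. Calls of DHX58 without either of these arrays, and of IFIH1 without control replicate 3, are also counted although the controls left were not above background. The number at least 2-fold lower ranged from 0 to 1 when 1 array was left out, the 1 being MAVS without anti-miR-503 replicate 1. The median log2 fold change of the 10 genes (0.44) was 0.69 among rows above the median level, where fewer genes remain, 0.57 with array weights, 0.17 over the 7 genes above background on all 6 arrays, 0.68 without both arrays, and 0.24 to 0.73 when 1 array was left out. The genes wholly above the controls numbered 2 to 5 when 1 array was left out. With background at the 99th percentile of the negative controls, 3 of the 10 genes, not 7, were above it on all 6 arrays. The cause of these changes was not tested, other than the filter's own construction.

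Replicate numbers were fitted as a replicate block, although they share only a number: deviations of same-numbered arrays correlated at -0.10, 0.21 and 0.00. With the block 1 of the 10 genes was 2-fold higher, 0 lower and 0 past the adjusted threshold, the median was 0.44, and over all rows 197 were higher and 228 lower, against 187 and 196 without it. Over all rows the counts of higher and lower were 38 and 55 by the unpaired t test, 118 and 123 among rows above the median level, 342 and 411 with array weights and 613 and 617 at 1.5-fold. Leaving out 1 array gave 81 to 519 higher and 82 to 818 lower, the highest without anti-miR-503 replicate 1, where 154 rows passed the adjusted threshold. None of the values compared turned direction past a threshold. No array signal over background was found for OAS2, and DHX58 is limited in the same way in the controls.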

Other observations

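The genes in this paragraph were chosen after their values had been seen. IFIT1, which binds viral RNA that lacks a cap methylation, had log2 signals of 11.20, 11.53 and 11.33 in anti-miR-503 arrays, against 10.07, 10.50 and 10.58 in control arrays, so the groups did not overlap (log2 difference 0.97, adjusted p = 0.756 from limma). IFIT3, a partner of IFIT1, had 13.23, 13.33 and 13.26 in anti-miR-503 arrays, against 12.36, 12.48 and 13.02 in control arrays, also without overlap. For IFIT2 the groups overlapped, with 13.39, 13.28 and 12.81 in anti-miR-503 arrays, against 11.11, 12.40 and 13.29 in control arrays. IFIT5, the remaining gene of this family on the list, had 8.21, 8.46 and 8.09 in anti-miR-503 arrays, against 8.53, 8.73 and 8.38 in control arrays, a lower mean with overlap (log2 difference -0.30, standard error 0.22). DDX60L, the paralog of DDX60, had 11.95, 11.61 and 12.14 in anti-miR-503 arrays, against 10.99, 11.94 and 11.83 in control arrays (log2 difference 0.31, standard error 0.30), and its order of arrays was not that of DDX60. The interferon-induced GTPase genes MX1 and MX2 were not above background on any array.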
